A study of Rattus norvegicus with 10 samples.

Results

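The genes described here encode regulators of pre-mRNA splicing and a few genes listed with them: the SR and SR-like proteins (symbols that start with Srsf, with Tra2a and Tra2b), the hnRNP proteins (symbols that start with Hnrnp), the kinases Clk1 to Clk4, the cold-inducible RNA-binding proteins Rbm3 and Cirbp, and Ccar1 and Taf1d. Every probe set that the platform annotation gives 1 symbol of that kind was taken, which gave 38 genes and 69 probe sets of 14217 genes and 31042 probe sets that are no controls. The 38 include Srsf7-ps4, whose symbol marks a pseudogene. The genes were chosen by the measured difference that this study is about, final minus basal signal: earlier results on these arrays had shown Clk, Ccar1, Taf1d and several Srsf genes among the lowered ones. Their differences are therefore given as a description, with no test, and support nothing.

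The arrays came from mammary tumours of female Sprague-Dawley rats, induced with the carcinogen 7,12-dimethylbenz(a)anthracene (DMBA) given once by mouth at 100 mg/kg, all of them grade II on the Bloom-Richardson scale. Each of 5 tumours, identified in the labels as 66D2, 67D3, 45D3, 49I1 and 51I1, gave 2 arrays. The basal array is a Trucut needle biopsy from an untreated rat of 12 weeks whose tumour measured 2 cm3. The final array is that tumour when the rat was sacrificed, aged 19 weeks and in week 7 after the biopsy. By then the rat had been gavaged with hydroxytyrosol, a phenol of olive oil, for 6 weeks, with 0.5 mg/kg on each of 5 days per week. Tumours of the later age without hydroxytyrosol were not analysed here, so treatment, age and tumour growth cannot be told apart. The sample labels name a needle piece at the first moment and total tumour at the second, while the design text calls both Trucut samples, so the way of sampling cannot be told apart from them either. Serial numbers in the sample titles also run together within each group, and what they mark is not stated.

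Splicing removes introns from the transcripts of the nucleus and joins the exons. SR proteins bind enhancer sequences in exons and recruit the spliceosome, hnRNP proteins often oppose them at the same exons, and the CLK kinases phosphorylate the serine and arginine repeats of SR proteins and release them from nuclear speckles. Many of these genes are known to control their own mRNA through exons with early stop codons or retained introns, so that different probe sets of one gene can read different transcripts. The part of the transcript that each probe set reads was not analysed here.

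Signals are Robust Multichip Average (RMA) values on the log2 scale, on which a difference of 1 is a doubling, and every level is of 1 probe set and is compared only with itself across arrays. A probe set was kept when its mean over the 10 arrays was not among the dimmest 40% (below 5.14), which left 18625 probe sets. Of the 69 splicing probe sets 61, from 35 genes, passed. The 8 that did not pass were 1 each of Ccar1, Taf1d and Hnrnpdl, a pair of Srsf10, and the sole probe sets of Srsf3, Srsf7 and Srsf7-ps4, so that these 3 genes have no usable value. The Srsf3 signals ran from 3.29 to 4.23 and the Srsf7 signals from 4.38 to 5.07, all below the cutoff of 5.14.

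The promoters of 5 of the genes are shown. Clk1 and Clk4 are kinases whose biopsies had the same order of tumours. Srsf2, Ccar1 and Taf1d had a probe set above the dim cutoff whose final arrays all lay below every biopsy. Of the 4 genes with such a probe set the fourth is Tra2b. The windows are from RefSeq on build GRCr8 and hold 250 bases before and 50 after the annotated start, 5′ to 3′ on the gene's strand: chr9:67453131-67453430 (minus strand) for Clk1, chr10:36025490-36025789 (plus strand) for 1 of the 2 windows of Clk4, chr10:102554092-102554391 (minus strand) for Srsf2, chr20:31271178-31271477 (minus strand) for Ccar1 and chr8:20427726-20428025 (plus strand) for Taf1d. Capitals mark matches, on either strand, to the CCAAT box, the TATA box (written TATAAA), the cAMP response element TGACGTCA, the ETS factor core (written CCGGAAG), the NRF1 site, the GC box (written GGGCGG) or the string CCATTTTG.
Clk1: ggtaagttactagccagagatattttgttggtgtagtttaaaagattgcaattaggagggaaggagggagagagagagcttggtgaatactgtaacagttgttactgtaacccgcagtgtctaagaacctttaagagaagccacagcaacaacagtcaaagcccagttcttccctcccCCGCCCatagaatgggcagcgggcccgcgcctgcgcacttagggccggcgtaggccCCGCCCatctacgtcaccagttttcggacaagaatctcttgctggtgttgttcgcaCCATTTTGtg
Clk4: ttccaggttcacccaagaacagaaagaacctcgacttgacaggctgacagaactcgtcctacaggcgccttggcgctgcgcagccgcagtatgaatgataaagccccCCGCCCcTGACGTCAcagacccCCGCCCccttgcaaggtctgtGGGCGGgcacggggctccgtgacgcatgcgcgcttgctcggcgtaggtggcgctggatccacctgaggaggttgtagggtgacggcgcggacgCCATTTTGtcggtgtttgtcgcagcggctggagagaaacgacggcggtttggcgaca
Srsf2: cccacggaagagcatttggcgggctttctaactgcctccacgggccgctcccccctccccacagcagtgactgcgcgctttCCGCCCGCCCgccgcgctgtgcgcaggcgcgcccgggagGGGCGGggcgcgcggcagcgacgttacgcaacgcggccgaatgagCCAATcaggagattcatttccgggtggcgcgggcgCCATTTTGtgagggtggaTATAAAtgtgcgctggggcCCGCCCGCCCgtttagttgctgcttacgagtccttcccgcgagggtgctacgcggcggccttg
Ccar1: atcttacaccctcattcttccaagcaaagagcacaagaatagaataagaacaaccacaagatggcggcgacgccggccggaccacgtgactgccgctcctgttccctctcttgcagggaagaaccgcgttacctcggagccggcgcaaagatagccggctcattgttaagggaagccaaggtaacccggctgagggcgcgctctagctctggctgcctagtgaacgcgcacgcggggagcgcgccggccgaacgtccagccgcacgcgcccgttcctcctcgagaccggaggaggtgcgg
Taf1d: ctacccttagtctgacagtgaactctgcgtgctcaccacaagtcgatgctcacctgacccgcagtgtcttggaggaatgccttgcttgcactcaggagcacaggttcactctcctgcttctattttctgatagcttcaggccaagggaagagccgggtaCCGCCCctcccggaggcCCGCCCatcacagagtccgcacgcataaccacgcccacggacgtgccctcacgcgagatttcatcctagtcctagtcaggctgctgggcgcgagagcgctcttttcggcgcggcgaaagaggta

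Windows were found for 35 of the 38 genes, 40 windows in all; Tra2a, Hnrnpll and Srsf7-ps4 had none. The string CCATTTTG stood in the windows of Clk1, Clk4, Hnrnpc, Hnrnpul1, Srsf1, Srsf2 and Srsf5, which is 7 of 40 (17.5%) against 1.57% of all 33469 RefSeq windows of this length. It was added to the search after the windows had been read, so its share is a description. GGGCGG, the core of the GC box, was in 29 of 40 windows (72.5%, all windows 33.1%), CCAAT in 24 (60%, all 37.5%), CCGGAAG, an ETS factor core, in 9 (22.5%, all 8.75%) and TATAAA in 8 (20%, all 14.2%). TGACGTCA, the cAMP response element, was in 1 window (2.5%, all 1.83%), the one printed for Clk4, which also held 3 matches to GGGCGG. The other Clk4 window, chr10:36024208-36024507 (plus strand), held 2 matches to CCAAT and 0 to the other strings. The NRF1 site was in 0 windows (all 0.852%), and the Ccar1 window held 0 matches to any of the strings. A match describes letters only, and neighbouring GGGCGG matches can overlap each other, as in Srsf2, whose window held 5 of them with 1 CCAAT, 1 TATAAA and 1 CCATTTTG.

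Over the 61 probe sets the final signal was mostly the lower one. The mean over tumours was lower in final samples for 53 of 61 (86.9%), against 9321 of all 18625 probe sets (50%), with a median difference of -0.19 against -0.00031. In 14 of 61 (23%) the final signal was lower in all 5 tumours, beside 4.75% of all probe sets, and in 0 of 61 it was higher in all 5, beside 3.96%. Every final array lay below every biopsy for 4 of 61, 1 probe set each of Ccar1, Taf1d, Srsf2 and Tra2b, beside 1.07% of all. These shares use the contrast that chose the genes, so nothing is read from the distance to the background. No probe set on the array passed limma's adjusted p of 0.05 (0%); the smallest adjusted p was 0.413, and at an unadjusted p of 0.05 limma counted 855 lower (4.59%) and 639 higher (3.43%).

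**Figure D1:**
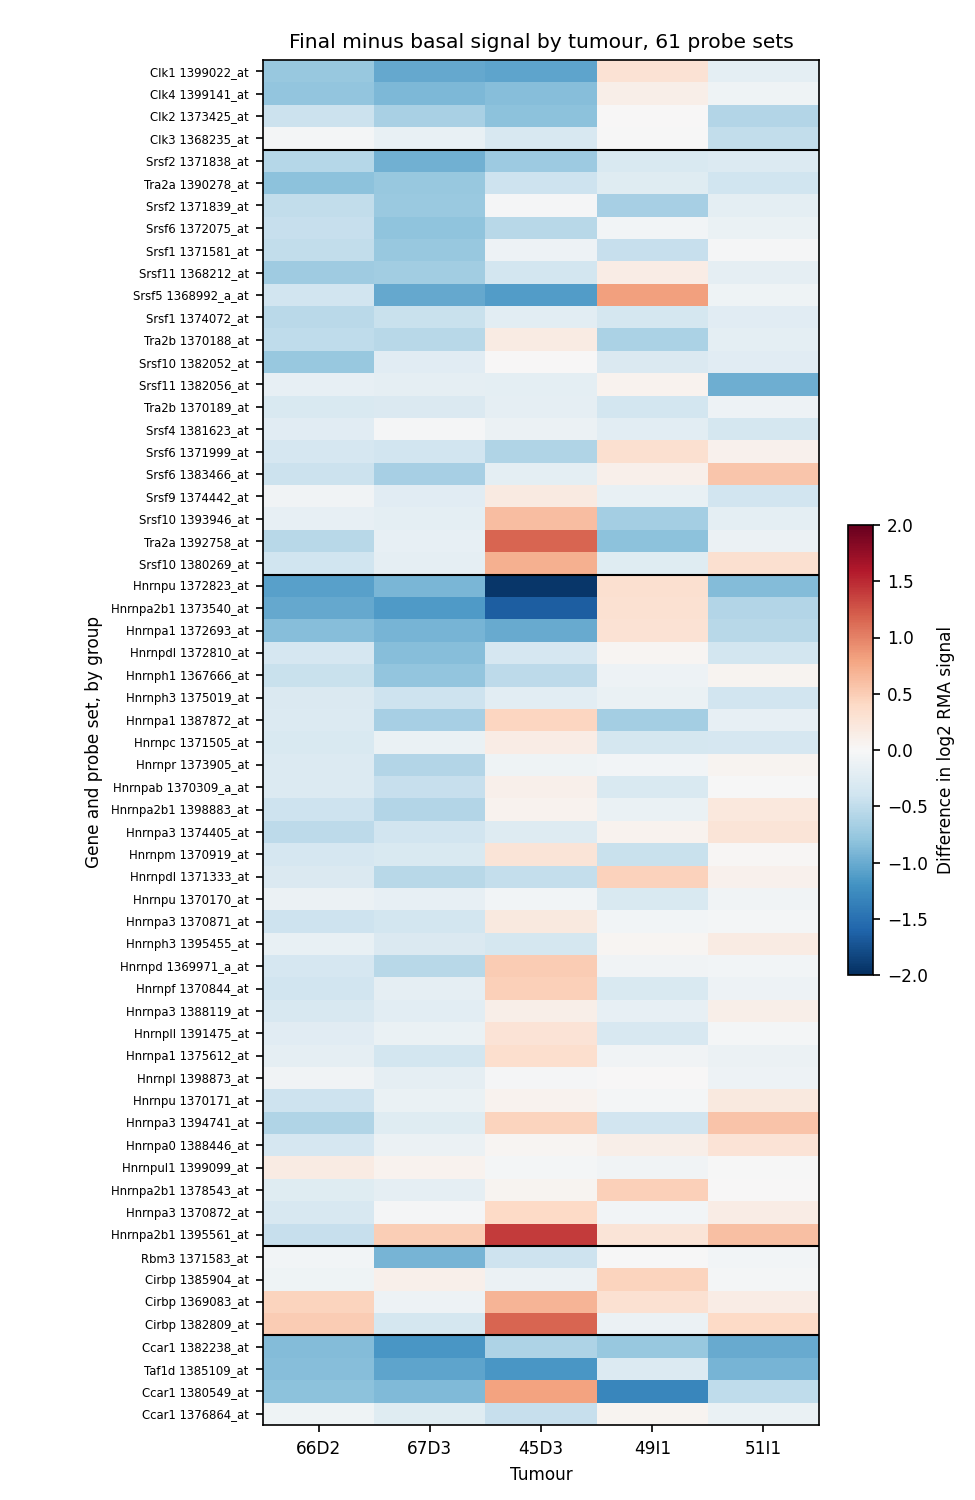
Final minus basal log2 signal of the 61 probe sets (rows, by group, divided by lines: CLK kinases, SR and SR-like proteins, hnRNP proteins, cold-inducible proteins, Ccar1 and Taf1d) in each of the 5 tumours (columns); blue is lower in the final sample, red higher, and the colour scale runs from -2 to 2. Blue fills most of the 66D2 and 67D3 columns (58 of 61 lower in each), while 45D3, 49I1 and 51I1 are mixed.

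The tumours differed in how far these genes moved. The median over the 61 probe sets was -0.34 in 66D2 and -0.38 in 67D3, where 58 of 61 were lower. It was -0.09 in 45D3 (35 lower), -0.07 in 49I1 (39 lower) and -0.10 in 51I1 (42 lower). The medians of all 18625 probe sets in the same tumours were 0.00, -0.01, 0.05, -0.04 and -0.05. The spread among arrays of one group was 0.23 (median SD, n = 5) in biopsies and 0.24 in final samples for these probe sets, and 0.26 and 0.25 for all probe sets.

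Other measurements moved with the tumours. The skeletal muscle markers (8 of 10 genes measurable, in 12 probe sets; Myh2 and Mylpf below the cutoff) were higher in final samples by a median of 3.45 in 66D2 and 5.91 in 67D3, the tumours with the lowest splicing medians, by 1.37 in 49I1, and by 0.09 and 0.19 in 45D3 and 51I1. Their summed signal (log2) ran from 10.52 to 11.46 in biopsies and from 10.80 to 15.24 in final samples. With the muscle marker level as a covariate the median of the splicing probe sets was -0.06, with 36 of 61 lower; without 66D2 and 67D3 it was -0.13, with 41 of 61 lower. Other marker lists differed between tumours too, in the order 66D2, 67D3, 45D3, 49I1, 51I1. The fibroblast markers (8 of 8 genes) had median differences of 1.43, 1.43, -1.29, 0.56 and 0.65, the endothelial markers (7 of 8) 1.19, 0.62, -0.99, -0.05 and 1.36, the adipocyte markers (7 of 10) 0.41, 0.90, -0.38, -0.01 and 2.23, and the mast cell markers (7 of 7) -0.52, -3.06, 0.10, -0.89 and 0.30. The rise of the fibroblast markers was thus also largest in 66D2 and 67D3. The hexokinase control probe sets read its transcript at both ends, and their 3′ minus 5′ difference grows where RNA is broken or incompletely copied. Its mean was 1.57 ± 0.60 (SD, n = 5) over the biopsies, against 1.02 ± 0.08 (SD, n = 5) for the final samples, and it was highest in the biopsies of 45D3 (2.36) and 67D3 (2.03). The same difference had means of 0.23 and 0.15 for Gapdh, and of 0.94 and 0.82 for beta-actin. Among biopsies it was again highest in 45D3 (0.48 and 1.25) and 67D3 (0.27 and 1.04). From biopsy to final sample, however, 67D3 changed by only 0.01 for Gapdh and -0.05 for beta-actin, against -1.02 for hexokinase. In 45D3 the changes were -0.45, -0.55 and -1.47. All 9 luminal epithelial markers were above the cutoff on all 10 arrays, and their summed signal ran from 14.91 to 15.34 in biopsies and from 14.89 to 15.31 in final samples. Elf5, however, ran from 6.00 to 11.24 over the 10 arrays. The median differences of these markers were 0.17, 0.45, 0.16, -0.05 and -0.35 in the order of tumours given above. In bulk tissue a lower signal can come from fewer cells of a type or from less RNA per cell, and these cannot be told apart; their part, and that of these other cell types and of RNA quality, was not tested.

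**Figure D2:**
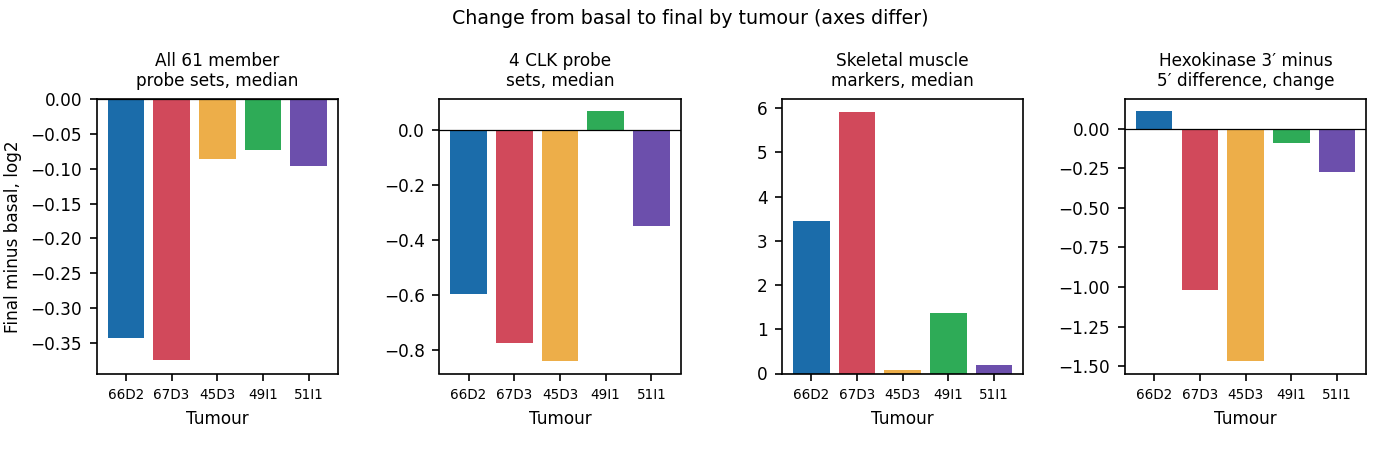
Change from biopsy to final sample in each of the 5 tumours, in log2 units: the median of the 61 splicing probe sets, the median of the 4 CLK probe sets, the median of the skeletal muscle markers and the change in the hexokinase 3′ minus 5′ difference; each panel has its own axis. The splicing median is lowest in 66D2 (-0.34) and 67D3 (-0.38), where the step in muscle markers was largest, and the CLK median is lowest in 45D3 (-0.84), where the hexokinase difference dropped most (-1.47). In 66D2 the CLK median is -0.59, and the hexokinase difference rose by 0.11. The values are only set side by side, and the part of muscle or of RNA quality was not tested.

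The 4 CLK kinases all had a lower mean in final samples, with a median of -0.50, but only Clk3 was lower in every tumour. By tumour the CLK median was lowest in 45D3 (-0.84), followed by 67D3 (-0.77), 66D2 (-0.59) and 51I1 (-0.35), and it was 0.07 in 49I1. Clk1, the best studied kinase of the family, had basal signals of 10.55, 11.45, 11.54, 10.49 and 10.46 and final signals of 9.79, 10.42, 10.49, 10.78 and 10.26, listed here and below in the order 66D2, 67D3, 45D3, 49I1, 51I1. The biopsies of 67D3 and 45D3 stood well above the other biopsies, and the final sample of 49I1 was the highest final one, so the groups overlapped. The means were 10.90 ± 0.55 (SD, n = 5) and 10.35 ± 0.36 (SD, n = 5), a difference of -0.55 (SE 0.22). Clk4, whose promoter is shown above, had the same order of tumours among its biopsies: basal signals were 8.76, 9.12, 9.31, 8.48 and 8.31 and final signals 7.97, 8.22, 8.46, 8.60 and 8.23. The difference was -0.79 in 66D2, -0.89 in 67D3, -0.85 in 45D3 and 0.12 in 49I1, the groups overlapped, and the mean difference was -0.50 (SE 0.19).

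Clk2 had basal signals of 9.39, 9.95, 9.87, 9.26 and 9.62 and final signals of 8.96, 9.29, 9.04, 9.27 and 9.03. It was lower in 4 tumours and differed by 0.01 in 49I1, with a mean difference of -0.50 (SE 0.14), and only the basal signal of 49I1 lay within the range of the final ones. Clk3 was lower in all 5 tumours, with differences of -0.03, -0.15, -0.32, -0.01 and -0.49, so that in 66D2 and 49I1 the step was small against the SD of the biopsies (0.19). Its mean difference was -0.20 (SE 0.11), and its groups, from 8.35 to 8.73 and from 8.24 to 8.58, overlapped. The biopsies with the highest Clk1 and Clk4 signals, 67D3 and 45D3, were those with the highest hexokinase 3′ minus 5′ difference. They also had the highest median signal of the myoepithelial and smooth muscle markers (11.56 and 11.79). The T and NK cell markers fell in 67D3 and 45D3 (-1.05 and -0.90) and rose in 66D2, 49I1 and 51I1. In 66D2, where the hexokinase difference rose by 0.11, Clk1 and Clk4 differed by -0.75 and -0.79. With the hexokinase difference as a covariate the mean difference was -0.23 for Clk1, -0.28 for Clk4 and -0.31 for Clk2. Without 67D3 and 45D3 it was -0.22, -0.25 and -0.34. The part of RNA quality and of other cell types in the CLK differences was not tested.

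**Figure D3:**
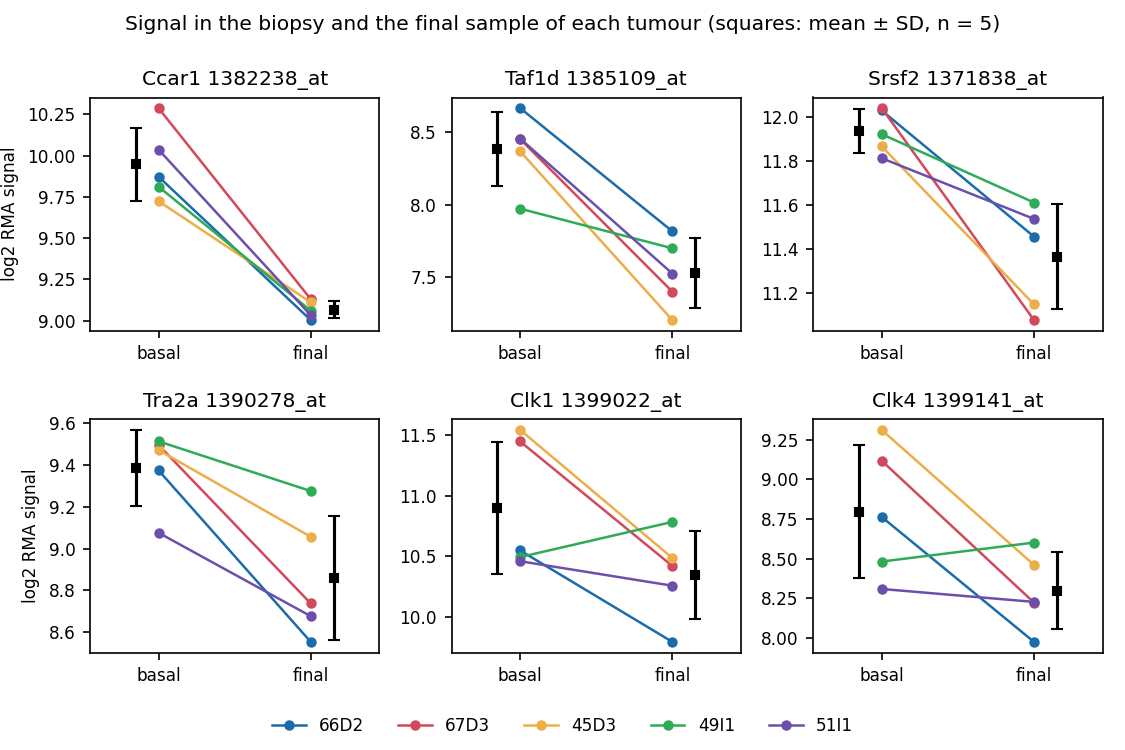
Log2 RMA signal (vertical axis; each panel has its own range, which does not start at 0) of 6 probe sets in the biopsy (basal) and the final sample of each tumour, joined by a coloured line per tumour; black squares with bars are the group mean ± SD (n = 5). For Ccar1, Taf1d and Srsf2 all 5 final points lie below all 5 basal points, while Clk1 and Clk4 are lower in 4 tumours and higher in the final sample of 49I1.

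SR and SR-like proteins contributed 13 genes, counting the pseudogene symbol Srsf7-ps4, and 10 of them had a usable probe set. Of their 19 probe sets 18 had a lower mean in final samples (94.7%, all probe sets 50%), with a median of -0.30. In all 5 tumours 8 were lower (42.1%, all probe sets 4.75%). Srsf2, known as SC35, which binds exonic enhancers and marks nuclear speckles, had basal signals of 12.03, 12.04, 11.87, 11.92 and 11.81 at probe set 1371838_at and final signals of 11.46, 11.07, 11.15, 11.61 and 11.54. The 2 groups did not overlap: the highest final signal lay 0.20 below the lowest basal one. The means were 11.93 ± 0.10 (SD, n = 5) and 11.36 ± 0.24 (SD, n = 5), a difference of -0.57 (SE 0.13). The other Srsf2 probe set, 1371839_at, was also lower in every tumour, with a mean difference of -0.42 (SE 0.13), though of -0.03 only in 45D3; with the muscle covariate it was -0.09.

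Srsf1, the founding SR protein (SF2/ASF), was lower in all 5 tumours at both of its probe sets. At 1371581_at the basal signals were 11.22, 10.89, 10.79, 11.15 and 10.81 and the final signals 10.72, 10.13, 10.69, 10.68 and 10.79. The final sample of 67D3 was well below the other 4, and 51I1 differed by -0.02 only. The mean differences were -0.37 (SE 0.13) at this probe set and -0.35 (SE 0.10) at 1374072_at, where the tumours lay between -0.55 and -0.21. With the muscle markers as a covariate they were -0.01 and -0.20.

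The transformer-2 proteins Tra2a and Tra2b, SR-like proteins that bind GAA-rich exonic enhancers, had 4 probe sets. Tra2a 1390278_at had basal signals of 9.37, 9.50, 9.47, 9.51 and 9.08 and final signals of 8.55, 8.74, 9.06, 9.27 and 8.68, lower in every tumour with a mean difference of -0.53 (SE 0.12). The groups overlapped only through 51I1, whose biopsy was the lowest, and through the final sample of 49I1. The other Tra2a probe set, 1392758_at, differed by -0.56, -0.17, 1.16, -0.83 and -0.11, so that 45D3 went the other way. Tra2b 1370189_at had basal signals from 11.22 to 11.48 and final signals from 10.94 to 11.13 that did not overlap, with a difference of -0.25 (SE 0.09). Tra2b 1370188_at differed by -0.35 (SE 0.14) and was lower in 4 tumours, with 45D3 higher by 0.16; with the muscle covariate it was at -0.02.

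Srsf6, an SR protein with a repeated RNA-binding domain, had 3 probe sets. 1372075_at was lower in every tumour, with basal signals of 10.90, 11.07, 10.89, 10.68 and 10.62, final signals of 10.43, 10.26, 10.33, 10.63 and 10.47, and a difference of -0.41 (SE 0.13). The differences in 49I1 and 51I1 were -0.06 and -0.14, and 1371999_at and 1383466_at, at -0.18 and -0.13 on average, were higher in these tumours by 0.08 to 0.55. Srsf4, a close relative of Srsf6, was lower in all 5 tumours at its 1 probe set, from -0.02 in 67D3 to -0.36 in 51I1, with a mean difference of -0.19 (SE 0.09). Srsf5, chosen for mention after its values were seen, went opposite ways in different tumours: basal signals were 10.54, 11.16, 11.05, 10.21 and 10.62 and final signals 10.17, 10.14, 9.94, 11.03 and 10.53. It differed by -1.02 in 67D3, -1.12 in 45D3 and 0.82 in 49I1, with a mean difference of -0.36 (SE 0.29) that turned to 0.14 with the hexokinase covariate and 0.12 without 67D3 and 45D3. The other SR genes, Srsf9, Srsf10 and Srsf11, had mean differences between -0.36 (Srsf11) and 0.04 (Srsf10).

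The hnRNP proteins were the largest group, with 17 genes and 30 usable probe sets. The mean was lower in final samples for 26 of 30 (86.7%, all probe sets 50%), with a median of -0.14. Only 2 were lower in all 5 tumours (6.67%), a share near the 4.75% of all probe sets. The extremes of the group were Hnrnpu 1372823_at at -0.90 and Hnrnpa2b1 1395561_at at 0.46. The 2 that were lower in every tumour were Hnrnph3 1375019_at and Hnrnpu 1370170_at. Hnrnph3, an hnRNP of the H and F family that binds G-rich tracts, had basal signals of 8.25, 8.36, 8.45, 8.48 and 8.38 and final signals of 7.96, 7.95, 8.24, 8.35 and 8.00, a difference of -0.28 (SE 0.09), with only the final sample of 49I1 inside the range of biopsies. Hnrnpu 1370170_at, with basal signals from 11.52 to 11.82 and final signals from 11.35 to 11.62, differed by -0.14 (SE 0.09). The hnRNP genes not described here or below had mean differences between -0.37 (Hnrnpdl) and 0.03 (Hnrnpa3).

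For 15 genes with at least 2 usable probe sets the probe sets could be set side by side. Their mean differences lay more than 0.5 apart in 4 genes, Hnrnpa2b1 (by 1.28), Hnrnpu (0.83), Ccar1 (0.71) and Hnrnpa1 (0.53), and had opposite signs in 3, Hnrnpa2b1, Srsf10 and Hnrnpa3. In the other 11 genes the gap ran from 0.01 in Srsf1 to 0.42 in Tra2a. Genes of the hnRNP A class and Srsf7 have near-identical copies in the genome, so a probe set may also read a paralog or a processed copy.

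Hnrnpa2b1 encodes the A2 and B1 proteins, which pack nascent transcripts and sort RNAs. At 1373540_at the basal signals were 8.83, 9.69, 9.53, 8.71 and 8.76 and the final signals 7.81, 8.56, 7.88, 9.01 and 8.18, a difference of -0.82 (SE 0.27). At 1395561_at the biopsies read 11.18, 9.49, 9.36, 10.69 and 10.17 and the final samples 10.72, 9.99, 10.76, 10.95 and 10.77, a difference of 0.46 (SE 0.25). The biopsies of 67D3 and 45D3 were thus the highest at the first probe set and the lowest at the second. In 45D3 the first differed by -1.65 and the second by 1.40. The other 2 probe sets, 1398883_at and 1378543_at, differed by -0.17 (SE 0.14) and 0.02 (SE 0.13).

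Hnrnpu, a scaffold protein that binds nuclear RNA and chromatin, gave basal signals of 8.08, 8.91, 8.97, 7.76 and 8.11 and final signals of 7.00, 8.01, 7.03, 8.08 and 7.24 at 1372823_at. The difference was -0.90 (SE 0.29), from -1.94 in 45D3 to 0.32 in 49I1, whereas 1370170_at and 1370171_at differed by -0.14 and -0.07. Hnrnpa1, which binds exonic silencers and is named here after its values were seen, showed the same contrast: 1372693_at read 10.67, 10.78, 10.78, 10.24 and 10.35 in biopsies and 9.82, 9.84, 9.77, 10.52 and 9.79 in final samples, while 1387872_at and 1375612_at differed by -0.27 and -0.08. At 1372693_at 4 final signals lay within 0.07 of each other and below all biopsies, and 49I1 alone stood apart; the mean difference was -0.61 (SE 0.20). With the hexokinase covariate the 3 strongly lowered probe sets of Hnrnpu, Hnrnpa2b1 and Hnrnpa1 were at -0.46, -0.40 and -0.37, and Hnrnpa2b1 1395561_at was at -0.01.

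**Figure D4:**
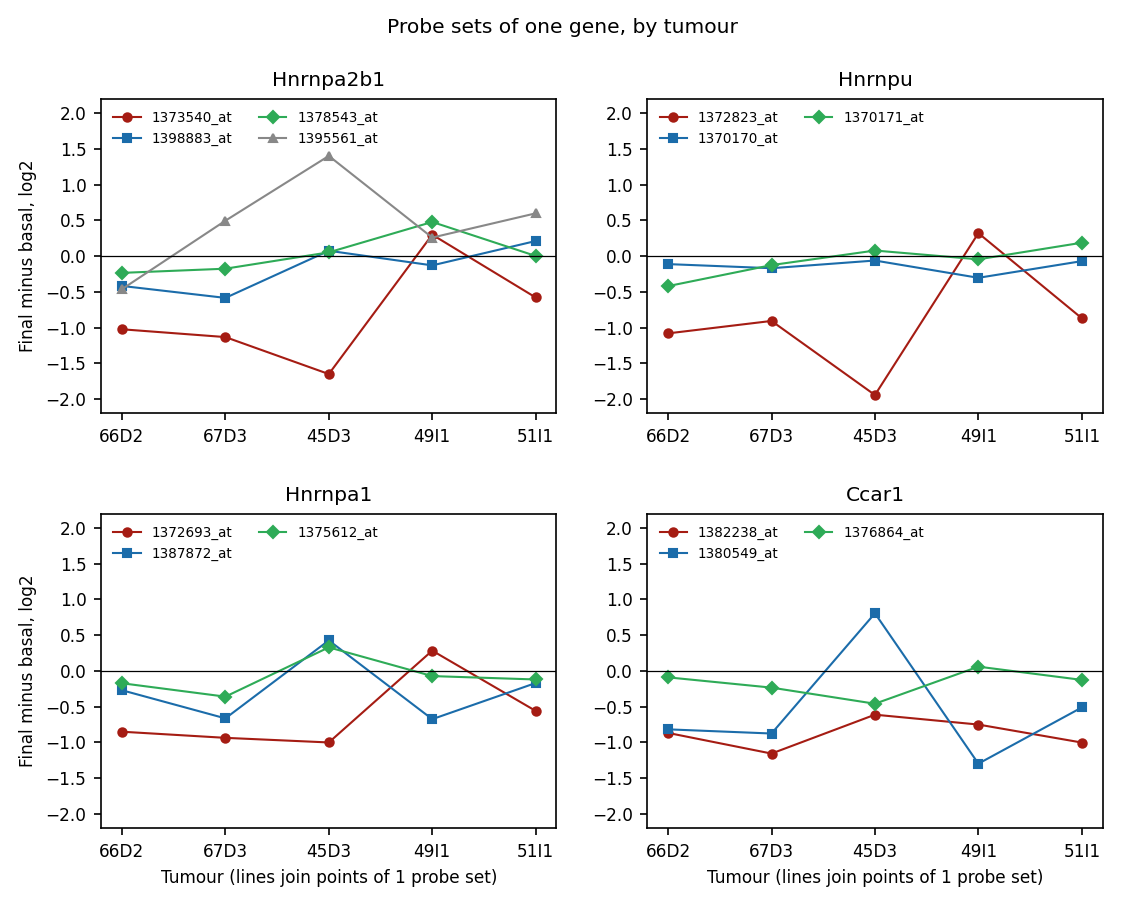
Final minus basal log2 signal (vertical axis) in the 5 tumours (horizontal axis) for the usable probe sets of Hnrnpa2b1, Hnrnpu, Hnrnpa1 and Ccar1; each colour and marker is 1 probe set and lines only join its points. The red probe sets of the 3 hnRNP genes lie below 0 in 66D2, 67D3, 45D3 and 51I1 and above 0 in 49I1. In 66D2, 67D3 and 45D3 the other probe sets of these genes lie nearer 0, with Hnrnpa2b1 1395561_at on the other side at 1.40 in 45D3.

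This tumour pattern, lower in 66D2, 67D3 and 45D3 and higher in 49I1, was counted after it had been seen. It was present in 17 of 61 splicing probe sets (27.9%), among them Clk1, Clk2, Clk4, Srsf5, both probe sets of Srsf11 and both usable ones of Hnrnpdl, and in 1365 of all 18625 (7.33%). In 11 of the 17 the biopsies of 67D3 and 45D3, those with the highest hexokinase 3′ minus 5′ difference, were the 2 highest. A pattern that asks for falls in these tumours by itself favours high biopsies there. The same count was not made for the 1365, so nothing is read from it. Over all splicing probe sets the biopsies of 67D3 and 45D3 were the 2 highest in 14 of 61 (23%, all probe sets 20.7%). They were the 2 lowest in 17 of 61 (27.9%, all 24.7%). In 45D3 the final signal was lower in 13 of the first 14 and higher in 14 of the other 17. These sets were picked by the same 45D3 biopsy from which the difference is taken. Such counts are thus largely set in advance, and nothing is read from them. The part of RNA quality in these differences was not tested.

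Rbm3 and Cirbp, glycine-rich RNA-binding proteins that are induced by mild cold, had mean differences of opposite sign. Rbm3 read 12.17, 12.06, 12.11, 11.88 and 12.19 in biopsies and 12.10, 11.12, 11.70, 11.88 and 12.14 in final samples. It was lower in all 5 tumours, but the step was under 0.1 in 66D2, 49I1 and 51I1, and the mean difference of -0.29 (SE 0.16) was -0.04 without 67D3 and 45D3. Cirbp 1369083_at read 6.82, 7.19, 6.81, 6.86 and 7.12 in biopsies and 7.27, 7.10, 7.49, 7.16 and 7.26 in final samples, higher in 4 of 5 tumours by 0.30 on average (SE 0.13). The other Cirbp probe sets differed by 0.32 (SE 0.22) and 0.06 (SE 0.11), and the groups overlapped at all 3.

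Ccar1, a coactivator of nuclear receptors and p53 that is also found with spliceosome components, had nearly the same final signal in every tumour at 1382238_at. Its basal signals were 9.87, 10.29, 9.72, 9.81 and 10.04 and its final signals 9.00, 9.13, 9.11, 9.06 and 9.03. The final signals lay within 0.13 of each other and 0.59 below the lowest biopsy. The means were 9.95 ± 0.22 (SD, n = 5) and 9.07 ± 0.05 (SD, n = 5), a difference of -0.88 (SE 0.11) (hexokinase covariate -0.90, muscle covariate -0.74). The other Ccar1 probe sets overlapped between the groups: 1380549_at read 6.92, 6.11, 5.41, 6.70 and 6.45 in biopsies and 6.10, 5.23, 6.22, 5.40 and 5.94 in final samples, higher by 0.81 in 45D3 and lower in the others, most in 49I1 (-1.30). Its mean difference was -0.54 (SE 0.29), with -1.03 under the hexokinase covariate and 0.12 under the muscle covariate. 1376864_at differed by -0.17 (SE 0.11).

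Taf1d, a subunit of the SL1 complex that brings RNA polymerase I to ribosomal RNA genes, read 8.66, 8.45, 8.37, 7.97 and 8.45 in biopsies and 7.82, 7.40, 7.21, 7.70 and 7.53 in final samples at 1385109_at. Every final signal was below every biopsy, with the smallest difference, -0.27, in 49I1. The means were 8.38 ± 0.25 (SD, n = 5) and 7.53 ± 0.24 (SD, n = 5), a difference of -0.85 (SE 0.14); the hexokinase covariate gave -0.66 and the muscle markers -0.94. Its other probe set was dim.

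Genes of the same pathway that are no members were read from 5 lists, with limma's test across all 18625 probe sets. Of their 170 probe sets 0 passed an adjusted p of 0.05. The lists were drawn up with earlier results of these data known, and probe sets of one gene are counted separately. Nothing is therefore read from the distance of their shares to the background. At an unadjusted p of 0.05 limma counted 33 of the 170 lower, and 9 with the muscle covariate. Among other splicing regulators (33 of 38 genes usable, 75 probe sets) 60 had a lower mean, with a median of -0.16; at an unadjusted p of 0.05 limma counted 18 lower (24%) and 1 higher, beside 4.59% and 3.43% of all probe sets. Tial1, a U-rich RNA-binding protein of stress granules, had the smallest p, with means of 9.77 ± 0.05 and 9.22 ± 0.19 (SD, n = 5 each). Its difference of -0.56 (SE 0.10), lower in 5 of 5 tumours, had a limma adjusted p of 0.413. Rbm39, an RNA-binding protein related to U2AF, was at -0.50 (SE 0.10, limma adjusted p = 0.413) at 1379737_a_at, and the speckle proteins Pnn and Acin1 were at -0.51 and -0.44 at theirs with the smallest p, each lower in 5 of 5 tumours (limma adjusted p = 0.55 for both).

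The core spliceosome list (53 of 57 genes, 68 probe sets) had 53 lower means and a median of -0.12, with 11 lower (16.2%) and 0 higher at an unadjusted p of 0.05. Sf3b1, the branch-site protein of the U2 particle, was at -1.18 (SE 0.24) at 1382691_at, from 7.73 ± 0.29 to 6.55 ± 0.60 (SD, n = 5 each), lower in 5 of 5 tumours with a limma adjusted p of 0.413. Its probe sets 1389840_at and 1390234_at were at -0.41 and -0.26, so that probe sets differed here as in the hnRNP genes. Prpf38b came next, at -0.37 at 1374500_at, lower in 5 of 5 tumours (limma adjusted p = 0.548). Its other probe sets, 1379691_at and 1385455_at, were at -0.12 and 0.14. Sf1, the branch-point binding protein, was at -0.29 at 1398339_at, lower in 5 of 5. Prpf39 was at -0.48, lower in 4 of 5 (limma adjusted p = 0.556 for both).

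The other kinases of SR proteins, the CDKs of pre-mRNA processing and the import receptor (8 of 10 genes, 16 probe sets) had 15 lower means and a median of -0.09, with 3 lower (18.8%) at an unadjusted p of 0.05 and 0 higher. All 3 were of Prpf4b, a spliceosomal kinase, at -0.36, -0.76 and -0.39 (limma adjusted p = 0.552, 0.606 and 0.62). Srpk1, the cytoplasmic SR protein kinase, was at -0.19 and -0.07, Cdk13 at -0.19 and -0.05, and Cdk11b at -0.11. Of the genes of nonsense-mediated decay, which removes transcripts with early stop codons, 7 of 10 were usable. Their 9 probe sets had 6 lower means and a median of -0.04, with 0 past an unadjusted p of 0.05 in limma; Smg9 was at -0.23, Smg6 at 0.37, Upf2 at 0.06, and the 3 of Smg5 between -0.12 and 0.13. Of the nuclear-retained transcripts only Ogt, whose intron is retained in the nucleus in other cells, was usable. Its 2 probe sets were at -0.41 (SE 0.16, limma adjusted p = 0.593) and -0.35 (SE 0.18, limma adjusted p = 0.657), each lower in 4 of 5 tumours with 49I1 higher; 1 of them had an unadjusted p under 0.05.

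**Figure D5:**
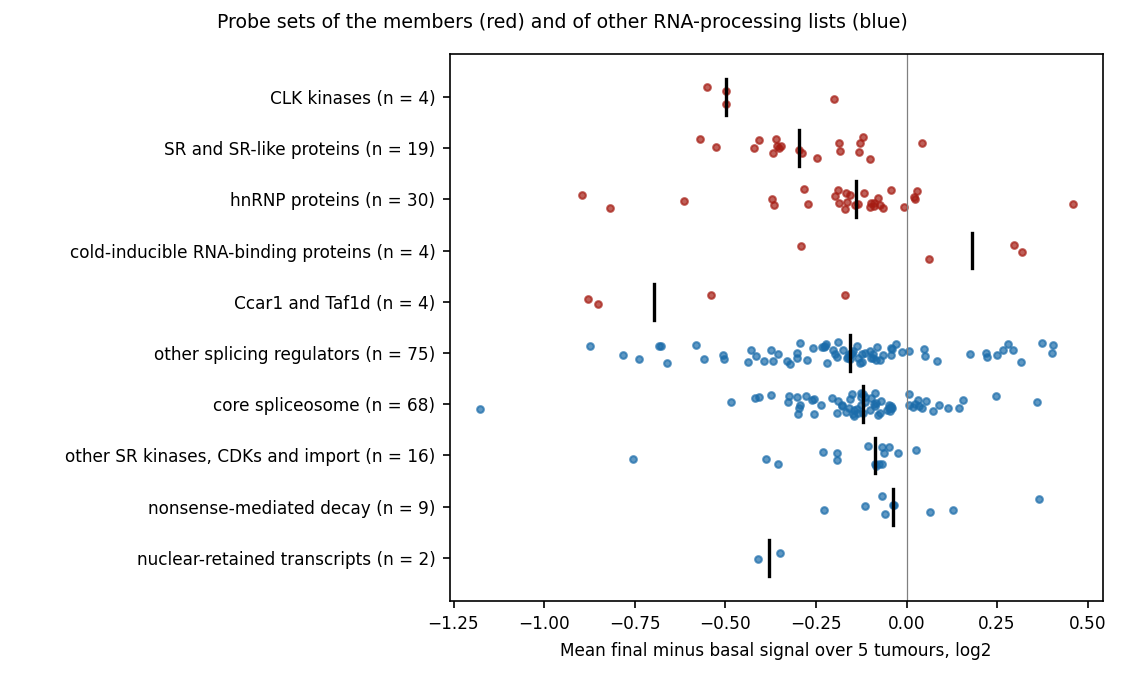
Mean final minus basal log2 signal over 5 tumours (horizontal axis) of each usable probe set, by group of splicing regulators (red) and by list of other RNA-processing genes (blue); the vertical bar is the median of the row, points are spread vertically for sight, and the grey line marks 0. Most points lie left of 0, with medians from -0.50 for the CLK kinases to -0.04 for nonsense-mediated decay, -0.70 for Ccar1 and Taf1d, and 0.18 for the cold-inducible proteins.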

How the data were processed

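Expression was measured on 10 Affymetrix rat arrays, 5 biopsies and 5 final samples of the same tumours. The authors normalised the arrays by RMA, per the submitters' processing notes and the design text, neither of which gives a version. What they deposited was taken as log2 signal because of its range, since the labels name no scale; RMA brings arrays to 1 distribution, so a change in total RNA would not show. The table held 31099 probe sets, 57 of them controls, which shows that the filter in the design text had not been applied to it. The platform annotation gave 20826 probe sets 1 symbol, 436 several and 9780 none; those with several were not used. No read depth exists, and the number of arrays limits the precision.

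Differences were fitted with limma 3.58.1 (lmFit, eBayes; statmod 1.5.0) in R 4.3.3 over all 18625 probe sets, with the tumour as a block, Benjamini-Hochberg adjustment, 4 residual degrees of freedom and a prior of 2.64; the fit was tested on simulated data. SEs are limma's. The pairing comes from the tumour identifiers in the labels; the deviations of the paired arrays from their group means correlated at 0.72, 0.47, -0.16, 0.29 and 0.17 across probe sets (66D2, 67D3, 45D3, 49I1, 51I1). The members and lists were chosen with earlier results of these data known. Named were the kinases, Tra2a, Tra2b, Rbm3, Cirbp, Ccar1 and Taf1d, Srsf and Hnrnp genes that moved one way in all 5 tumours or whose probe sets opposed each other by over 0.5, and up to 4 genes per list with the smallest p; Srsf5 and Hnrnpa1 were added after their values were seen. Alternatives covered the block, the dim filter, scaling, array weights, covariates, the methods' t-test, 1 probe set per gene and left-out tumours.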

Additional observations from a re-analysis of the deposited data

Results flagged for a closer look

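Of 74 groups of 5 arrays checked for the named probe sets, 7 held 1 array far from the other 4, by a gap over 0.71 of the range. Chance alone would flag about 1 in 20 independent groups. Probe sets read on the same arrays are not independent, and some were named for their direction or after their values were seen. The count of 7 is therefore not compared with that rate. All 7 were final groups, and 5 of them had 67D3 as the low array. In that array Srsf1 1371581_at read 10.13 (others 10.68 to 10.79), Tra2b 1370189_at 10.94 (others 11.08 to 11.13), Hnrnpa1 1387872_at 10.42 (others 11.11 to 11.38), Hnrnpa1 1375612_at 8.82 (others 9.52 to 9.79) and Hnrnpa2b1 1395561_at 9.99 (others 10.72 to 10.95). The same array had the highest summed signal of skeletal muscle markers, 15.24 (log2); its part in these values was not tested. Hnrnpa1 1372693_at was high in the final array of 49I1, at 10.52 against 9.77 to 9.84, and Tra2a 1392758_at was high in the final array of 45D3, at 8.14 against 7.46 to 7.64.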

How the results depend on the processing

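The median of the 61 splicing probe sets was -0.19 with the tumour as a block. It was -0.19 with no replicate block too, since with complete pairs dropping the block cannot change a mean difference. It was -0.24 with the hexokinase covariate or array weights and -0.06 with the muscle covariate. With 1 tumour left out it ran from -0.13 (without 67D3) to -0.25 (without 45D3). The genes were chosen by this contrast, so a negative sign in all alternatives run supports nothing. The count lower in every tumour, 14, was between 14 and 28 with 1 tumour left out and 28 without 67D3 and 45D3, which leaves fewer tumours to agree. With the brightest probe set per gene, 33 of 35 genes had a lower mean, against 53 of 61 probe sets. The 33 other splicing probe sets lower at an unadjusted p of 0.05 became 32 without the pairing, 54 with array weights, 16 with 1 probe set per gene, 9 with the muscle covariate, 4 without 66D2 and 67D3, and 17 to 47 with 1 tumour left out (17 without 66D2, 19 without 67D3 or 51I1, 47 without 45D3). Over the whole array 0 probe sets passed the adjusted threshold, except 2 with the hexokinase covariate, Ccn3 (2.44, limma adjusted p = 0.0237) and an unnamed probe set (2.32, limma adjusted p = 0.0432); neither is a splicing gene named here. Leaving out 66D2 and 67D3, or 67D3 and 45D3, was chosen after the data were seen. The methods' t-test called 0 after adjustment and 1394 at an unadjusted p of 0.05, beside 1494 in limma.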

Other observations

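Several probe sets of splicing genes outside the group were, like Hnrnpu 1372823_at, lowest in 45D3 and higher in the final sample only in 49I1; Hnrnpu 1372823_at differed by -1.08, -0.91, -1.94, 0.32 and -0.87 in 66D2, 67D3, 45D3, 49I1 and 51I1. Another probe set of each of these genes had smaller steps in 45D3. They were picked after their values were seen and are given as values. Rbm39 1381967_at differed by -0.98, -0.98, -1.78, 0.12 and -0.74, and Rbm39 1395092_at by -0.96, -0.73, -1.72, 0.03 and -0.53, whereas Rbm39 1398993_at differed by -0.36, -0.47, -0.39, -0.07 and -0.32. Acin1 1396098_at differed by -0.64, -0.71, -1.22, 0.10 and -0.96, and Acin1 1394774_at by -0.37, -0.14, -0.26, -0.15 and -0.21. Prpf4b 1385533_at differed by -0.98, -1.01, -1.79, 0.43 and -0.43, and Prpf4b 1376010_at by -0.45, -0.39, -0.10, -0.38 and -0.46. In 49I1 the first of each pair was higher in the final sample and the last lower. Not every probe set kept to this split. Acin1 1398944_at was lowest in 45D3 (-0.84) but lower in 49I1 as well (-0.28). Rbm5 was lowest in 45D3 and higher in 49I1 at 1382749_at, 1398595_at and 1372251_at, with 45D3 at -1.43, -2.56 and -0.55. The 45D3 biopsy, which holds the largest of these steps, had the highest hexokinase 3′ minus 5′ difference (2.36); its part was not tested.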
